A study of Mus musculus with 38 samples.

Results

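Endothelial cells line the blood vessels of fat tissue and are part of its stromal vascular fraction, the cells other than adipocytes. The 10 genes described here are well known products of these cells: the growth factor receptors Kdr, Flt1, Tek and Tie1, the co-receptor Eng, the junction and adhesion proteins Cdh5, Pecam1 and Esam, the surface sialomucin Emcn and the secreted clotting protein Vwf. They were chosen by gene name, out of 29353 gene names on the array, and their levels were followed over all 38 arrays of the series. The array names 9 of the 10 genes directly. The probe of Esam carries an older symbol, Esam1, and was found through its RefSeq accession. Together the genes had 16 probes, and a gene was represented by its probe of highest mean level.

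Each array held RNA of epididymal stromal vascular cells of C57BL/6J mice, which the labels call infiltrating macrophages, with a single array for each diet at each time. Mice weaned at 3 to 4 weeks of age were fed either low fat control chow (LFC, 10 arrays) or a diet high in fat and sucrose (HFC, 10 arrays). In 3 further groups of 6 arrays, HF5, HF20 and HF75, the fatty diet was combined with KAL-1, a formulation of plant origin, at 5, 20 or 75 µg. The groups LFC and HFC were sampled at days 6, 10 and 14 (D6, D10, D14) and at weeks 0, 3, 6, 9, 12, 15 and 18 (W0 to W18), and the formulation groups from W3 on. D14 and W0 fall on the same elapsed day. The design text speaks of 3 biological replicates, while 1 array per diet and time was analysed here. The sources used here do not say whether an array held RNA of 1 animal or of several, and spread is therefore given over time points.

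Levels are log2 intensities relative to the 75th percentile of their array, so that 0 is a probe at that percentile, and levels of different genes are not compared with each other. The signal at the 75th percentile ran from 25.8 scanner units on HF5 W12 to 1980 on HFC W0, and between 41.0% and 91.2% of probes were well above background. Of 10 macrophage markers, between 8 and 10 were well above background on each array. The same held for 7 to 9 of 9 adipocyte genes and 20 to 24 of 24 other endothelial genes. Detection therefore cannot check the labelled cell type. The representative probes of the 10 endothelial genes were well above background on 38 of 38 arrays. The arrays LFC D6 and LFC D10 stood apart in other markers, as did HF5 W12. On LFC D6 and LFC D10 the level of Ucp1, the uncoupling protein of brown fat, was 3.83 and 5.12, against a median of -4.66 on the other 36 arrays. Tcf21, a gene of visceral fat named because of its known values, was at -6.41 and -6.76 there, against a median of 0.17. Results that rest on these arrays are given with and without them. In bulk RNA, fewer endothelial cells and less RNA per cell cannot be told apart.

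Endothelial cells sense vascular endothelial growth factors (VEGF) through Kdr and Flt1, and angiopoietins through Tek, for which Tie1 is a partner receptor. Kdr carries most of the growth and migration signal of VEGF, and Flt1 binds the same ligand tightly and also acts as a decoy. Many endothelial genes carry binding sites of ETS factors such as Erg and Fli1 in their regulatory DNA. The 250 bases before the start of these 4 receptor genes are shown because the receptors are the members whose diet difference and shared course the results follow. They come from RefSeq on build GRCm38.p6, which held 6 of the 10 genes, and the sequence is 5′ to 3′ on the strand of the gene. Capitals mark the letters CAGGAA or CCGGAA on either strand, so that TTCCTG and TTCCGG also appear. CAGGAA and CCGGAA hold GGAA, the core of ETS sites, and GGAA after other letters, as in the window of Flt1, is not marked.
Kdr (chr5:75978456-75978705, minus strand): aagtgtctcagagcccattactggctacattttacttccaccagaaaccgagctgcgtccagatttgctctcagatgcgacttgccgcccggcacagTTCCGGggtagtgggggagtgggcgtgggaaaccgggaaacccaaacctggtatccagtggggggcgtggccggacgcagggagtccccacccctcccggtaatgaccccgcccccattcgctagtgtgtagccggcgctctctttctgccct
Flt1 (chr5:147726012-147726261, minus strand): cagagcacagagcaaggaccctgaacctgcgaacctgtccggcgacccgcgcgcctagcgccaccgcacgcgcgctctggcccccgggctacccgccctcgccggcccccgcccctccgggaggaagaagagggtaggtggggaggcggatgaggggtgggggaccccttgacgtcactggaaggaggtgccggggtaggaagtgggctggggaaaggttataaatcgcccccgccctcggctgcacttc
Tek (chr4:94739039-94739288, plus strand): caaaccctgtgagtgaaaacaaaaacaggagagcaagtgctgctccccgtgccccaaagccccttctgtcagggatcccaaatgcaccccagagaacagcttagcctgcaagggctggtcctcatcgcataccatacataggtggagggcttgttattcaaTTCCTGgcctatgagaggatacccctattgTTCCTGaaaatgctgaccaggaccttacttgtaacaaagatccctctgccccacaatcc
Tie1 (chr4:118489850-118490099, minus strand): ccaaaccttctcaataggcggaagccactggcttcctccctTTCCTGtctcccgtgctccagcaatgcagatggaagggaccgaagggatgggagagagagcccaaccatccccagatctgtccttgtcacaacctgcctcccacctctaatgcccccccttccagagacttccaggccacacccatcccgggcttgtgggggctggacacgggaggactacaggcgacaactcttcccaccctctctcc

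The window of Kdr held 1 such match, that of Tek 2, that of Tie1 1 and that of Flt1 0. Of the other members in the table, Emcn had 2 matches and Eng 0. Among all 32851 promoter windows of this length, 35.1% held at least 1 of these matches and 8.43% held 2 or more, and the letters alone say nothing of binding. Pecam1, Cdh5, Vwf and Esam were not in the table.

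The levels of both VEGF receptors were highest on the low fat array of D10. Kdr ran from 1.07 (LFC W6) over a median of 3.41 to 6.56 (LFC D10) in LFC, and from 1.53 (HFC W6) over 2.78 to 3.99 (HFC W15) in HFC. In HF5 its level ran from 1.87 to 3.63 with a median of 3.34, in HF20 from 1.17 to 4.07 with 1.90, and in HF75 from -0.92 to 4.17 with 2.56. The ranges of all 5 diets overlapped, and the lowest value of all, on HF75 W3, belonged to the second dimmest array. Flt1 ran from 2.17 (LFC W6) over 4.34 to 7.58 (LFC D10) in LFC, and from 2.16 (HFC D14) over 3.63 to 5.11 (HFC W15) in HFC. On the formulation its range was 2.94 to 5.83 in HF5, 2.84 to 4.96 in HF20 and 0.95 to 5.32 in HF75. A further probe of Flt1 followed the representative one over the 38 arrays (r 0.96, rho 0.95), and the representative spot was saturated on LFC W15, where its value of 5.57 is a lower bound. The further probe, which was not saturated, was highest on LFC D10 (4.28) and LFC W15 (3.83).

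The angiopoietin receptor Tek and its partner Tie1 had the same extremes. Tek ran from -1.66 (LFC W6) over -0.32 to 2.55 (LFC D10) in LFC, and only from -0.95 (HFC D10) over -0.34 to 0.15 (HFC W0) in HFC. The SD over the 10 time points was 1.34 log2 in LFC and 0.35 in HFC for Tek. Tie1 ran from -0.76 (LFC W6) over 0.04 to 2.61 (LFC D10) in LFC, and from -0.95 (HFC D14) over -0.34 to 0.78 (HFC D6) in HFC. Both were lowest of all on HF75 W3, at -2.73 for Tek and -2.95 for Tie1. In HF5 the level of Tie1 lay between -0.06 and 0.55 at 5 of 6 weeks and at -2.15 at W9.

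Cdh5 (VE-cadherin, the adherens junction protein of endothelium), Pecam1 (CD31, an adhesion protein also found on platelets and leukocytes) and Esam (an adhesion protein of endothelial tight junctions and platelets) were again highest on LFC D10. Cdh5 ran from 1.18 to 5.43 in LFC with a median of 3.19, and from 1.45 to 3.78 in HFC with 2.62. Its lowest value over all arrays was 0.98 on HF20 W12. Pecam1 ran from -0.71 to 3.25 in LFC with a median of 0.59, and from -0.66 to 1.28 in HFC with 0.23. On the formulation Pecam1 reached 2.25 on HF20 W6 and 2.42 on HF75 W6, its highest values after LFC D10, and was lowest on HF75 W3 at -2.73. Esam ran from 0.55 to 4.47 in LFC with a median of 2.18, and from 0.60 to 2.71 in HFC with 1.70. For all 3 genes the LFC values of D10 lay above every HFC value, and the lowest LFC values lay within the range of HFC or below it. The second probe of Cdh5 was well above background on 36 of 38 arrays and followed the first less closely (r 0.71, rho 0.63), with the largest departure on HF5 W12.

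Eng (endoglin, a co-receptor for ligands of the TGF-beta family on endothelial cells) was highest on LFC D10 by each of its probes. By the representative probe its level was 4.10 there and 4.01 on LFC D6. The other LFC values ran from 0.45 (LFC W12) to 3.10 (LFC W18), and the HFC values from 0.96 (HFC D14) over a median of 1.66 to 2.83 (HFC D6). Besides its representative probe, Eng had 3 probe names that carry 1 and the same sequence of 60 bases. Its first 30 bases are shown because they make these probes a technical repeat of 1 measurement, with 2 spots each, and no base is set in capitals.
Eng probe, first 30 bases: ccaacccccaaatgtctgatgagggagcta

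The 3 repeats differed by a median of 0.08 log2 on an array, measured as highest minus lowest. On HFC D10, however, they read 0.71, 0.79 and -1.79, a range of 2.58 log2, and the next largest range was 0.79 on LFC W18. On LFC D6 the repeats read between 2.49 and 2.74, above all of their HFC values, which reached 1.89. These LFC D6 values lay below those of 2.84 to 3.04 on LFC W15. The representative probe read 4.01 on LFC D6 and 2.92 on LFC W15, so that the order of these arrays differed between the probes. The single representative probe correlated with them at r between 0.70 and 0.83.

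Emcn (endomucin, a sialomucin of capillary and venous endothelium) ran from 2.13 (LFC W6) over 3.54 to 5.58 (LFC D10) in LFC, and from 2.08 (HFC W9) over 3.32 to 3.89 (HFC W15) in HFC. LFC W18 came close to the highest value, at 5.49. In HF5 the 6 values of Emcn lay between 3.26 and 3.87, an SD of 0.23 log2, against an SD of 1.06 in HF75. Vwf (von Willebrand factor, which is stored in endothelial cells and megakaryocytes and binds platelets) had another course. Its highest level was 7.12 on LFC W18, and on LFC D10 it stood at 3.75, below the LFC median of 4.81. Its lowest levels were at W9 and W12, with 2.39 on LFC W9, 2.80 on HFC W9, 3.15 on LFC W12 and 1.96 on HF75 W12. The representative spot of Vwf was saturated on 3 arrays of W6, so that its levels of 5.65 in HFC, 5.93 in HF20 and 5.64 in HF75 are lower bounds there. A further probe of Vwf followed the representative one (r 0.92, rho 0.84), with the largest departure on HF75 W3.

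**Figure D1:**
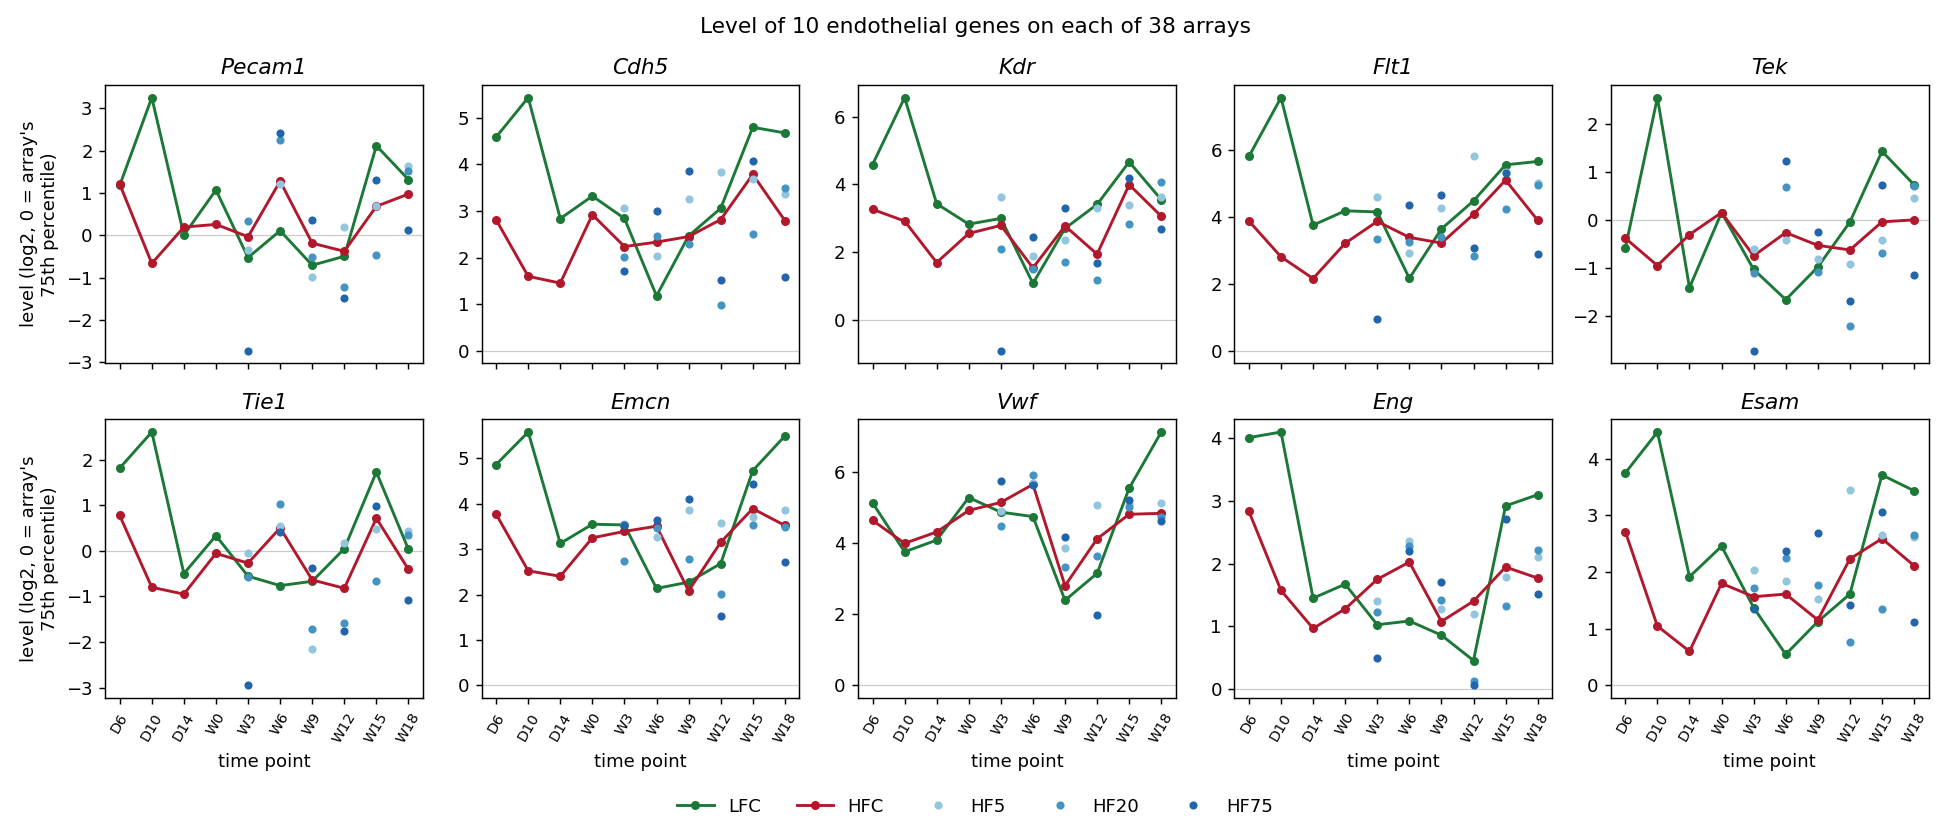
Level of each gene (log2 intensity relative to the 75th percentile of the array) by time point, with 1 array per point, LFC and HFC joined by lines and the 3 formulation doses as blue points. In 9 of the 10 panels the highest point is LFC D10, and in the panel of Vwf it is LFC W18 at 7.12.

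LFC D10 thus held the highest value of 9 of the 10 genes, and HF75 W3 held the lowest value of 5. The mean level of the 10 genes was 4.59 on LFC D10, followed by 3.72 on LFC W15 and by 3.51 on LFC D6 and on LFC W18. It was lowest on HF75 W3 (0.45), HF75 W12 (0.63) and HF20 W12 (0.65). Over W3 to W18, where all 5 diets had 6 arrays, the means of the diets lay close together. For Flt1 the order was HF75 (3.55 ± 1.58, SD, n = 6), HF20 (3.68 ± 0.78), HFC (3.93 ± 0.66), LFC (4.28 ± 1.30) and HF5 (4.67 ± 1.01). For Kdr it was HF75 (2.22 ± 1.76), HF20 (2.23 ± 1.06), HFC (2.68 ± 0.87), HF5 (3.02 ± 0.73) and LFC (3.06 ± 1.19). For Vwf it was HF20 (4.52 ± 0.94), HFC (4.56 ± 0.996), HF75 (4.56 ± 1.41), LFC (4.64 ± 1.69) and HF5 (4.96 ± 0.60). In each of the 10 genes every neighbour in this order differed by less than the SD of either diet, 40 of 40 pairs in all. HF20 or HF75 was lowest in all 10 genes, and HF5 or LFC highest. The means of the weeks were spread more widely than those of the diets in 10 of 10 genes, with an SD of 0.44 to 0.97 log2 over weeks and of 0.12 to 0.46 over diets.

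The first comparison asked whether endothelial genes differ between HFC and LFC over all time points. All 10 genes were lower in HFC, with a median difference of -0.63 log2 over the genes, but none passed the threshold of an adjusted p of 0.05. Beside them, the median over the 31022 probes tested was -0.01 log2, and 50.99% of probes were lower in HFC. Flt1 differed by -1.14 log2 (SE 0.45, 2.20-fold lower, adjusted p 0.521), below 0 at 9 of 10 time points. For Cdh5 the difference was -0.998 (SE 0.39), below 0 at 9 of 10 time points, and for Kdr -0.93 (SE 0.35), below 0 at 8, with the same adjusted p. These 3 genes had an unadjusted p below 0.05 in limma, as had 9.54% of all probes. Esam differed by -0.70 (SE 0.37), Emcn by -0.65 (SE 0.36), Tie1 by -0.60 (SE 0.35), Eng by -0.41 (SE 0.33) and Pecam1 by -0.40 (SE 0.41). For Tek the difference was -0.28 (SE 0.41) and for Vwf -0.08 (SE 0.29), both well within their errors. The further probe of Vwf gave 0.10 (SE 0.29), the opposite sign, and those of Flt1, Cdh5 and Eng gave -1.18, -0.63 and between -0.57 and -0.80. Over all probes, 0% passed this comparison, with a smallest adjusted p of 0.521 and 2959 unadjusted.

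Leaving out D6 and D10, a choice made after the data were seen, brought the median of the 10 genes to -0.24 log2, with 9 of 10 lower and 0 genes below 0.05 unadjusted. On these time points markers of other tissues moved as well. The mean level of 5 brown fat genes was 1.81 on LFC D6 and 2.38 on LFC D10, with 5 of 5 well above background, and -2.51 and -3.10 on the HFC arrays of these days. The mean of 9 mesothelial genes was -3.80 and -5.32 on the LFC arrays and 3.23 and 2.41 on the HFC arrays, and 4 of 9 of them were well above background on each of these LFC arrays. Erythroid and platelet genes had their 2 highest means on these LFC arrays, at 3.90 and 4.17 for the 5 erythroid genes and at -1.18 and -1.11 for the 7 platelet genes. Their part in the endothelial result was not tested. LFC D6 and LFC D10 were also dimmer than their HFC partners, with a 75th percentile of 229 and 261 scanner units against 676 and 856. The same held for LFC D14 (668 against 1715) and LFC W18 (229 against 491). At W12 the LFC array was the brighter, at 1537 against 1155. With array brightness as a covariate the median of the 10 genes was 0.10 log2, and 4 of 10 were lower in HFC.

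**Figure D2:**
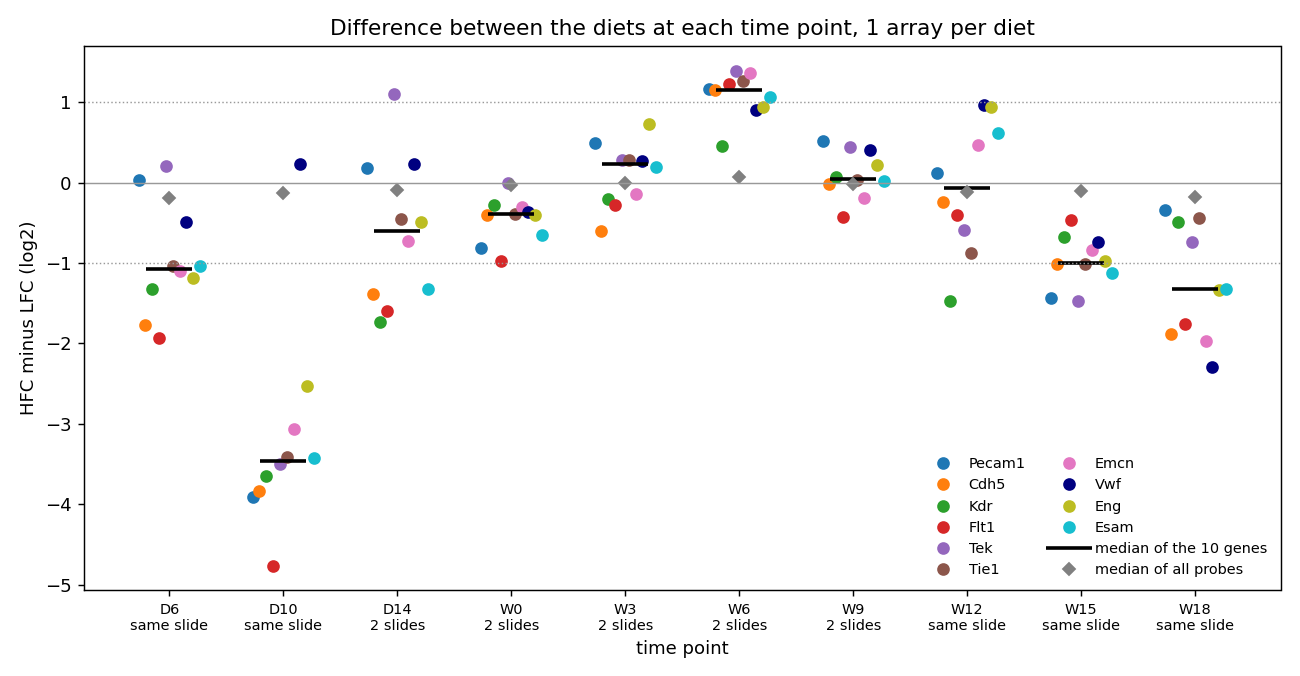
HFC minus LFC (log2) of each gene at each time point, 1 array per diet, with the median of the 10 genes as a black bar, the median of all probes as a grey diamond and dotted lines at 2-fold. The median of the genes is -3.46 at D10 and 1.16 at W6, and the axis notes whether both arrays lay on the same slide.

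At single time points there was 1 array per diet and therefore no test, and differences of at least 2-fold were counted over probes well above background on both arrays. At D6, 7 of 10 genes were at least 2-fold lower in HFC, as were 12.6% of all probes, and 0 were higher, against 8.33% of probes. At D10, 9 of 10 were lower (22.1% of probes) and 0 higher (15.7%), with Flt1 at -4.76 log2, from 7.58 in LFC to 2.81 in HFC. Pecam1 differed by -3.91, Cdh5 by -3.83, Kdr by -3.65, Tek by -3.50, Esam by -3.42, Tie1 by -3.41, Emcn by -3.06 and Eng by -2.53 at this time. Vwf alone was not lower in HFC at D10, at 0.24 log2.

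At D14, 4 of 10 genes were lower (9.25%), namely Kdr, Flt1, Cdh5 and Esam, and Tek was higher (7.49%). At W0, the same elapsed day, 0 were at least 2-fold lower (4.87%) or higher (4.68%), and all 10 differences were below 0, the lowest at -0.97 for Flt1. At W3 the counts were again 0 lower (4.98%) and 0 higher (8.94%). W6 had the opposite direction to D10, with 0 genes lower (11.6%) and 7 of 10 higher in HFC (6.59%), and all 10 differences above 0. Tek differed by 1.40 and Emcn by 1.37 log2 there, while Kdr differed by 0.46. The count of 7 is a lower limit, since the HFC spot of Vwf was saturated, and the unsaturated probe of Vwf read 1.88 in LFC and 3.29 in HFC. At W9 there were 0 lower (3.72%) and 0 higher (4.57%). At W12 only Kdr was lower (23.5%), at -1.47 log2, and 0 were higher (21.2%). The HFC array of W12 had 10.4% of its probes left out as outliers. At W15, 5 of 10 genes were lower (8.5%) and 0 higher (7.75%), and at W18, 6 of 10 were lower (14%) and 0 higher (13.9%), with all 10 genes below 0 at both weeks. The count at W15 is a lower limit, since the LFC spot of Flt1 was saturated there, and the unsaturated probe of Flt1 read 3.83 in LFC and 2.59 in HFC. The largest difference at W18 was that of Vwf, from 7.12 in LFC to 4.84 in HFC. LFC W18 was a dim array, with a 75th percentile of 229 scanner units against 491 on HFC W18. On LFC W18 57.0% of probes were well above background, against 66.2% on HFC W18.

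The LFC and HFC arrays lay on the same slide at D6, D10, W12, W15 and W18 and on different slides at the other 5 time points. Over the time points of the same slide the median of the 10 genes was -1.28 log2, and over the others 0.08 log2, with 4 of 10 genes lower. Slide arrangement and time point cannot be told apart.

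A further question was whether the diet difference, or the level within either diet, followed time. When HFC minus LFC was regressed on elapsed day in limma, 0 of the 10 genes passed and 0% of 31022 probes (lowest adjusted p 0.972, 1297 probes unadjusted). The median slope of the genes was 0.03 log2 per week, with 8 of 10 above 0, against -0.00 over all probes. Without D6 and D10 it was -0.04, with 9 of 10 below 0. Within LFC, 0 genes and 0% of 28466 probes had a slope past the threshold (1108 probes unadjusted), and the median slope of the genes was -0.00 log2 per week. Without D6 and D10, all 10 genes had a slope above 0 in LFC, with a median of 0.08. Within HFC, 0 genes and 0% of 30872 probes passed (2360 unadjusted), and 8 of 10 genes had a slope above 0 with a median of 0.02. Flt1 had the steepest slope of the genes there, 0.07 log2 per week (SE 0.03, adjusted p 0.609). In these slopes within a diet, time, age, slide and scan day cannot be told apart.

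The groups given KAL-1 were set against HFC from W3 to W18, in 1 limma fit of 30 arrays and 33709 probes. With HF5, 9 of 10 genes were higher than in HFC, with a median of 0.36 log2 against 0.02 over all probes, and 0 genes and 0% of probes passed (1439 unadjusted). Flt1 differed by 0.74 (SE 0.54), Esam by 0.48 (SE 0.45), Cdh5 by 0.47 (SE 0.48), Vwf by 0.40 (SE 0.46), Emcn by 0.38 (SE 0.44) and Kdr by 0.35 (SE 0.53). The further probes gave -0.15 (SE 0.63) for Cdh5, the opposite sign, 0.16 (SE 0.42) for Vwf and 0.68 (SE 0.52) for Flt1. Esam was higher in HF5 at 6 of 6 weeks, by 0.07 to 1.21 log2. So were the 3 repeat probes of Eng, with differences between 0.36 and 0.44, while the representative probe of Eng was higher at 3 of 6 weeks and differed by 0.03. With HF20, all 10 genes were lower than in HFC, with a median of -0.25 against 0.09 over all probes, and 0 genes and 0% passed (557 unadjusted). The largest of these differences were -0.45 (SE 0.53) for Kdr and -0.44 (SE 0.48) for Cdh5. Without W12 the median of the 10 genes for HF20 minus HFC was -0.04. With HF75, 7 of 10 genes were lower, with a median of -0.24 against 0.02, and 0 genes and 0% passed (627 unadjusted), with Tie1 at -0.64 (SE 0.48). The lowest adjusted p of the 10 genes in these contrasts, which share the 6 HFC arrays, was 0.9998. In 4 HF5 and HF20 arrays of W15 and W18 a diet label named the other of these doses, and with the doses taken from that label the medians were 0.28 for HF5 and -0.17 for HF20.

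**Figure D3:**
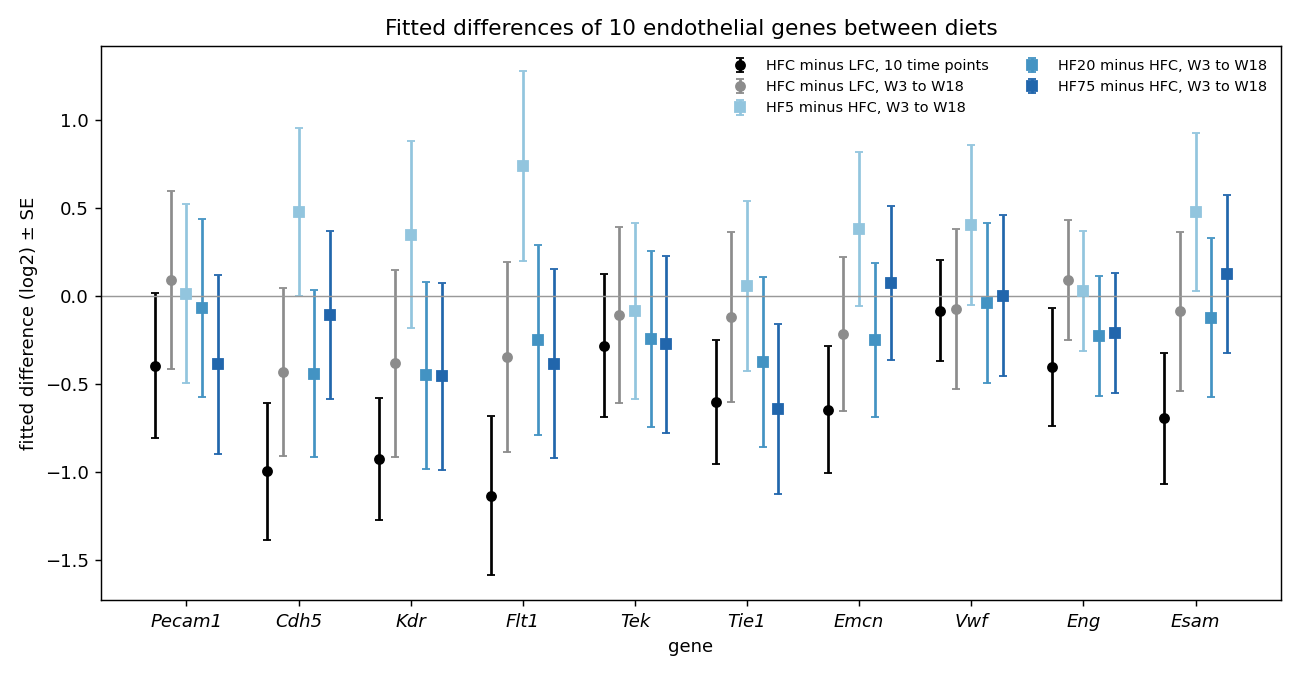
Fitted differences in log2 with their SE for each gene, for HFC minus LFC over 10 time points (black) and over W3 to W18 (grey), and for each formulation dose minus HFC over W3 to W18 (blue squares). The black points are all below 0, from -0.08 to -1.14, and the grey ones lie between -0.43 and 0.09.

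By week, the direction of the formulation arrays turned several times. All 10 genes were lower than in HFC on HF20 W12, HF75 W12 and HF75 W18, with medians of -1.19, -1.09 and -0.82 log2. All 10 were higher on HF75 W9, HF75 W15 and HF5 W18, with medians of 1.01, 0.44 and 0.54. On HFC W12 and HF75 W12, 10.4% and 13.4% of probes were left out as outliers, against 1.99% on HFC D10, the next highest. The part of this in the W12 differences was not tested. On HF75 W3 the median was -1.62 log2, with Kdr at -3.71, and the median of all probes stood at 0.75. Vwf was higher there by 0.60 by its representative probe only. Its further probe was lower, at 1.76 on HF75 W3 against 3.25 on HFC W3. Without the 2 dimmest arrays, HF5 W12 and HF75 W3, a choice made after the data were seen, the median of the genes was 0.14 for HF5 and 0.04 for HF75 minus HFC. In HF5 the normexp background correction turned the median to -0.25. For the mean of the 3 doses minus HFC the median of the genes was -0.08, with 6 of 10 lower, and 0 genes and 0% of probes passed (566 unadjusted). HFC minus LFC over the same weeks gave a median of -0.12, with 8 of 10 lower, and 0 genes and 0% passed (1007 unadjusted). Its values were -0.43 (SE 0.48) for Cdh5 and -0.35 (SE 0.54) for Flt1, and Eng and Pecam1 were at 0.09.

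The 10 genes varied together across arrays. Over the 38 arrays Pearson's r between 2 of them had a median of 0.71 over the 45 pairs (median rho 0.65), as a description, since all points share an array, its brightness and its cells. Cdh5 and Flt1 were most alike (r 0.92, rho 0.94), followed by Cdh5 and Esam (r 0.92, rho 0.86), Kdr and Flt1 (r 0.89, rho 0.83) and Pecam1 and Tie1 (r 0.88, rho 0.85). Without LFC D6 and LFC D10 the median r was 0.64, and after the mean of each time point was taken off it was 0.77. The pairs without Vwf ran from 0.60 to 0.92. Vwf had r between 0.02 (with Kdr) and 0.61 (with Emcn) with the other 9 genes. With the mean of the other 9 genes Esam had an r of 0.89 and Vwf of 0.37, which became 0.65 without the 2 arrays farthest from the median of that mean.

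**Figure D4:**
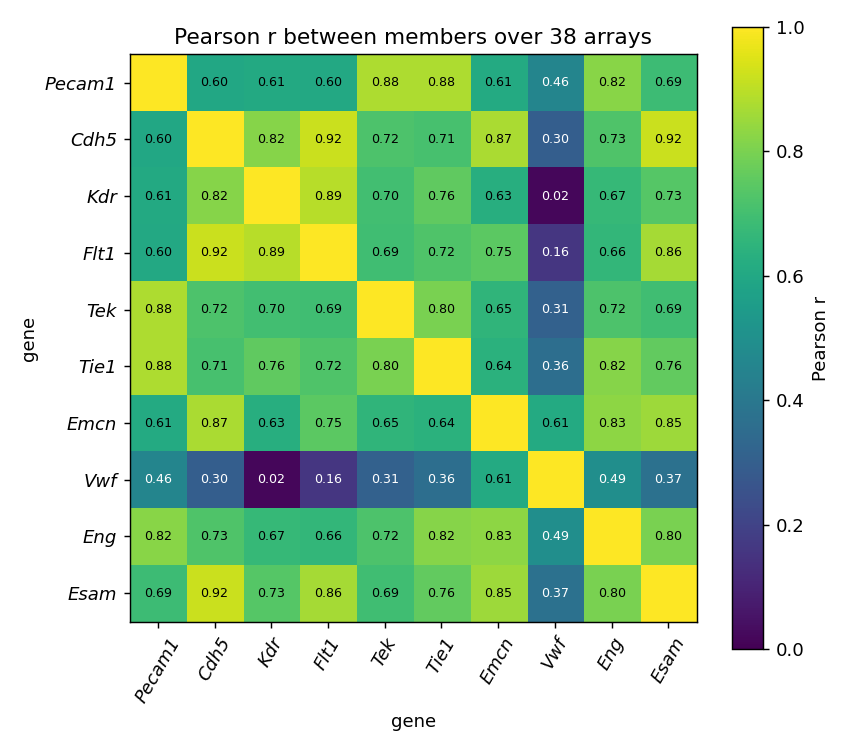
Pearson's r between each pair of the 10 genes over 38 arrays, with the colour scale from 0 to 1. Apart from the diagonal, the row of Vwf is the darkest, with r from 0.02 to 0.61, while the other pairs lie between 0.60 and 0.92.

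Of 17720 other genes ranked by their r with the mean of the 10 genes, the 10 most alike were Rasip1 (r 0.94, rho 0.93), Timeless (0.93, 0.92), She (0.93, 0.95), Scarf1 (0.93, 0.93), Sh3bp5 (0.92, 0.89), Apbb2 (0.92, 0.86), Kcna5 (0.91, 0.89), Cxcl12 (0.91, 0.89), Erg (0.91, 0.88) and Mmrn2 (0.91, 0.90), over 38 arrays. Without LFC D6 and LFC D10 their r lay between 0.88 and 0.93. The median r over all ranked genes was 0.03, and 92 genes had an r above 0.8. Cxcl12 is a chemokine of stromal and endothelial cells, Erg is an ETS transcription factor of endothelium and Mmrn2 is a matrix protein around its junctions.

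Other genes of the vessel wall were read from lists of known genes. Of 24 other endothelial receptors and surface genes, 19 were lower in HFC over the 10 time points, with a median of -0.44 log2, and 0 passed. Those of smallest p were Gpihbp1, the capillary anchor of lipoprotein lipase, at -1.26 (SE 0.51), Egfl7, a secreted endothelial protein, at -0.80 (SE 0.36) and Robo4, an endothelial guidance receptor, at -0.82 (SE 0.38). Of 12 endothelial transcription factors, 11 were lower with a median of -0.71, and 0 passed. Gata2 was at -0.67 (SE 0.28), Erg at -0.74 (SE 0.33) and Tal1 at -0.79 (SE 0.35). Of 10 Notch pathway genes, 9 were lower with a median of -0.53 and 0 passed, with the receptor Notch4 at -0.77 (SE 0.36) and the target gene Hey1 at -0.83 (SE 0.39). Without D6 and D10 the medians of these 3 lists were -0.20, -0.36 and -0.30. With array brightness as a covariate they were 0.08, -0.02 and 0.05.

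Of 9 ligands, 6 were lower with a median of -0.22, and 0 passed, with Pdgfb, which recruits mural cells, at -0.86 (SE 0.34) and Vegfb at -0.77 (SE 0.37). Of 11 mural cell genes, which mark pericytes and smooth muscle, 8 were lower with a median of -0.19 and 0 passed, with Abcc9 at -0.62 (SE 0.23). The lymphatic list had 5 of its 6 genes on the array. Of these, 4 were higher in HFC, with a median of 0.51 and 0 past the threshold, with Pdpn, also a gene of mesothelium and fibroblasts, at 1.28 (SE 0.46). Prox1, the transcription factor of lymphatic identity, was well above background on 17 of 38 arrays and entered the test through the HFC arrays only. No difference is therefore given for Prox1, and the count of 4 and the median of 0.51 both include it. Beside the median of -0.01 over all probes, 10 of 10 macrophage markers were higher in HFC (median 0.57), as were 9 of 9 mesothelial genes (1.78) and 6 of 6 epididymis genes tested (2.03), of which only 5 would have been tested on the LFC arrays alone. Adipocyte genes were lower in 8 of 9 (-0.76), brown fat genes in 3 of 4 tested (-1.51), skeletal muscle genes in 5 of 5 (-0.68), platelet genes in 6 of 7 (-0.29), erythroid genes in 4 of 5 (-0.25) and reference genes in 4 of 6 (-0.37). Stromal progenitor genes were split 4 to 4 (0.08), and 7 of 8 immediate early genes were higher (0.25). Over W3 to W18, without D6, D10, D14 and W0, the medians were 0.63 for macrophage, 0.28 for mesothelial and 0.59 for epididymis genes. They were -0.75 for adipocyte, -0.19 for brown fat, -0.22 for skeletal muscle and -0.21 for reference genes. Platelet (0.13), erythroid (0.39) and mural cell genes (0.02) turned to the opposite sign. Ligands were at -0.21 and lymphatic genes, again with Prox1, at 0.43. No gene of any of these lists passed in either comparison.

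The mean level of the 10 genes followed the mean of the 24 other endothelial genes over the 38 arrays (r 0.96, rho 0.95), and r was 0.95 without the 2 farthest arrays and 0.96 without LFC D6 and LFC D10. It followed the transcription factors (r 0.93, rho 0.89) and the Notch list (r 0.94, rho 0.93) as well. With the macrophage list r was 0.14 (rho 0.14), with adipocyte genes 0.02 (rho 0.14) and with stromal progenitor genes 0.14 (rho 0.14). Other lists had larger values, with r 0.50 (rho 0.43) for platelet genes, -0.40 (rho -0.41) for epididymis genes and 0.38 (rho 0.40) for immediate early genes. Without the 2 farthest arrays these were 0.28, -0.38 and 0.40. With the brown fat list r was 0.30 (rho 0.03) and became -0.04 without LFC D6 and LFC D10. With the mesothelial list it was -0.33 (rho -0.10), and -0.07 without those arrays. With array brightness it was -0.18 (rho -0.19), and -0.47 without the 2 farthest arrays. Vwf followed the mural cell genes more closely (r 0.88, rho 0.78, and 0.84 without the 2 farthest arrays) than the mean of the 10 genes did (r 0.45, rho 0.56). The difference between these correlations was not tested. Vwf and the mural list were both lowest on HF75 W12, and both highest on LFC W18.

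**Figure D5:**
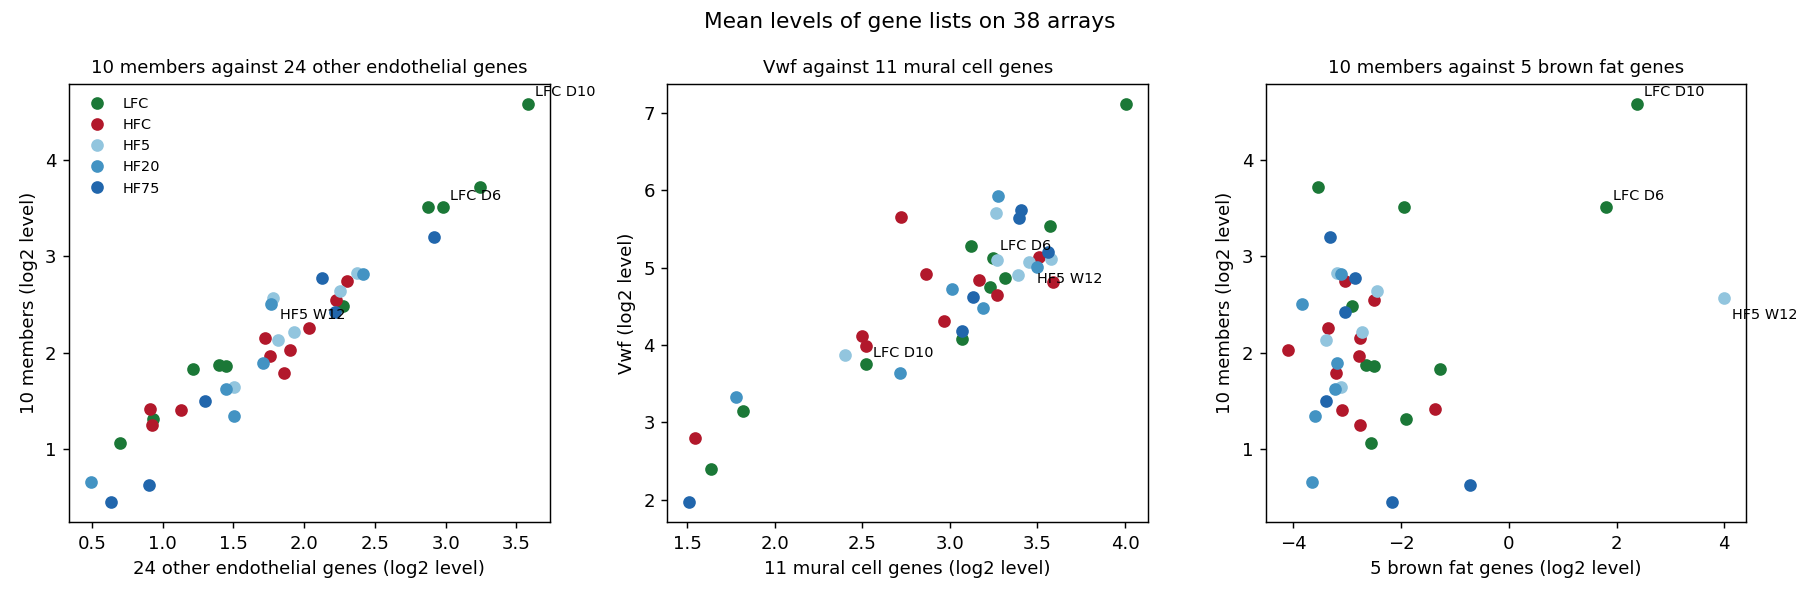
Mean log2 levels on the 38 arrays: the 10 genes against 24 other endothelial genes (left), Vwf against 11 mural cell genes (middle) and the 10 genes against 5 brown fat genes (right), with points coloured by diet. LFC D6, LFC D10 and HF5 W12 are named, and they are the 3 arrays to the right of the others in the brown fat panel.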

How the data were processed

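RNA of 38 samples was measured on 1-colour Agilent mouse arrays, 1 array per diet and time point, with groups taken from the sample labels. The deposited scanner files, made with Agilent Feature Extraction 9.1 per the submitters' processing notes, hold a background-subtracted intensity per spot. A deposited table of the authors' log2 ratios to LFC of the same time was not used.

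From the 43803 spots that are not controls, outlier spots were left out and spots of a probe averaged, giving 40628 probes, of which 69.3% matched the RefSeq gene table and 3897 took a newer symbol. Each level is the log2 processed intensity minus the log2 75th percentile of the array. Probes well above background on at least 0.5 of the arrays of a diet in the comparison were tested in limma 3.58.1 (R 4.3.3), two-sided, with the time point as a block, except in the slopes within a diet, and Benjamini-Hochberg adjustment over all probes tested (threshold 0.05). With 1 array per diet and time point, time points stand in for replicates, and the p-values measure the spread between them. The number of arrays limits the precision. The fitting was tested on simulated data, and 160 alternative fits were run, among them quantile and median scaling, normexp background correction (offset 50), other filters, brightness as a covariate and the methods' t-test.

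The 10 genes, the gene lists and the tests were chosen with earlier results of these data known. All 10 genes are named. From each list the text names at most the 3 genes of smallest p in HFC minus LFC, unless a gene passed. It also names the 10 genes most correlated with the mean of the 10. Pdgfb, Vegfd, Notch1, Notch4, Pf4 and Ppbp are also named as the extremes of r with that mean in their lists. Ucp1 and Tcf21 are named for the arrays that stood apart, and Prox1 for its detection.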

Additional observations from a re-analysis of the deposited data

Results flagged for a closer look

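Among 50 sets of values, 1 per gene and diet, 2 had a sample far from the others, and chance gives about 1 in 20 such sets. Tek was at 0.46 on HF5 W18, where the nearest of the other HF5 arrays, W15, was at -0.41. Both arrays are among those with a diet label naming the other dose, HF20, and Tek was at 0.71 on HF20 W18. Tie1 was at -2.15 on HF5 W9, where the nearest of the other HF5 arrays, W3, was at -0.06.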

How the results depend on the processing

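No probe and none of the 10 genes passed the threshold in limma under any alternative run. For HFC minus LFC over 10 time points, the lowest adjusted p of the 10 genes over the alternatives was 0.225, and the methods' t-test called 0 probes, with 1160 probes and 2 of the 10 genes unadjusted. Cdh5, Flt1 and Kdr stayed lower in HFC in all 22 alternatives. They came closest to 0 with brightness as a covariate, at -0.058 for Cdh5, -0.040 for Flt1 and -0.28 for Kdr. The other 7 genes turned to higher in HFC in at least 1 alternative. With brightness as a covariate the values were 0.17 for Pecam1, 0.039 for Tek, 0.17 for Emcn, 0.22 for Vwf, 0.41 for Eng and 0.20 for Esam. On time points of different slides they were 0.31 for Pecam1, 0.65 for Tek, 0.15 for Tie1, 0.0023 for Emcn, 0.29 for Vwf and 0.20 for Eng. Tek was at 0.057 without D6 and D10, and ran from -0.47 to 0.074 as single time points were left out, the latter without D10. Vwf was at 0.23 with quantile scaling, 0.10 with normexp and ran from -0.20 without W12 to 0.16 without W18. Leaving out D6 and D10, the slide subsets, leaving out the 2 dimmest arrays and keeping outlier spots were chosen after seeing the data. The cause of these turns was not tested.

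The median of the 10 genes for HFC minus LFC was -0.80 with median scaling, where the median of all probes was -0.18, and -0.47 with normexp, where it was -0.25. Leaving out 1 time point gave between -0.84 without W6 and -0.34 without D10. The median change of HFC minus LFC per week was -0.033 with the brightness covariate and -0.038 without D6 and D10, and ran from -0.014 without D10 to 0.075 without W18. The median slope within LFC was 0.078 without D6 and D10, and ran from -0.047 without W18 to 0.038 without D10. For HF5 minus HFC the median was -0.25 with normexp. Over W3 to W18, leaving out 1 week turned the median to 0.07 for HFC minus LFC without W18, to 0.06 for HF75 minus HFC without W3 and to 0.05 for the mean of the doses without W12.

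No paired analysis was possible by replicate number because the labels do not number replicates. The time point is the block, and saturated spots of Flt1 and Vwf give lower bounds.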

Other observations

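Among the ligands, likeness to the 10 genes varied widely over the 38 arrays, as a description. Pdgfb, which endothelial cells secrete to recruit mural cells, had an r of 0.81 with their mean level, and Vegfd, a ligand of lymphatic vessels, one of -0.27, while the median over 9 ligands was 0.09. All 10 Notch pathway genes had a positive r, from 0.53 for Notch1 to 0.88 for Notch4. Among 7 platelet genes the r ran from 0.09 for Pf4 to 0.75 for Ppbp.

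D14 and W0 are the same elapsed day under separate labels. The 10 genes differed between them by a median absolute value of 0.57 log2 in LFC and 0.85 in HFC, against 0.58 and 0.42 over 29249 probes. W0 was the higher for 9 of 10 genes in LFC and for 10 of 10 in HFC, and no share of all probes higher at W0 is given beside these counts. The arrays of D14 and W0 also differed in scan day, slide and brightness. Their 75th percentile was 668 and 1534 scanner units in LFC, and 1715 and 1980 in HFC. The part of this in the differences was not tested.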
